A study of Homo sapiens with 5 samples.

Results

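On chromosomes 1 to 22 and X, the longest stretches free of genes (1 per chromosome) held 298 of the 948 CUT&Tag peaks that THP-1 replicate 1 had on those chromosomes. The whole series held 3554 listed peaks. The members were chosen by position alone. For each chromosome the longest stretch without any annotated gene, of any kind, was taken from a RefSeq gene table, and a peak belonged to it when its summit, the position of its highest signal, lay inside. Width, fold enrichment and significance played no part in the choice.

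FOXO3A binding was mapped in 2 established human lines that the labels class as acute myeloid leukemia cells, THP-1 (3 libraries) and U-937 (2 libraries). The labels name no treatment or genotype, only growth in medium with serum, and the same FOXO3A antibody was used for all libraries. An antibody-guided Tn5 transposase cut and tagged the DNA near bound protein, and the tagged fragments were amplified and sequenced. Peaks were listed for the first replicate of each line only (THP-1 1282, U-937 2272), while the lists of the other 3 libraries held 0. Each line is thus represented by 1 list, and the values below could not be checked in a replicate. No control library was used here, and read depth is unknown. Because peaks of 1 library are not replicates of a condition, no test was made between groups of peaks. Exact (Clopper-Pearson) 95% intervals are given for some shares and cover counting error only. They treat peaks as independent, although 40.3% of members had another peak within 10 kb.

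Human chromosomes carry their longest stretches without genes mostly at centromeres and in the heterochromatin beside them, and on the short arms of the acrocentric chromosomes. Much of this sequence is satellite DNA, in which a short unit is repeated in tandem over very long arrays. FOXO3A is a forkhead transcription factor that acts on genes of stress resistance, cell cycle arrest and apoptosis, which it reaches at their promoters and enhancers. A reference assembly holds satellite arrays as gaps, as modelled sequence or as short sequenced islands, and reads from repeated units cannot always be placed at a single position. The gene table gave no repeats and no gaps, so the satellite family under a peak was not assigned here. No genome sequence was used here, and none of the members overlapped a promoter or microRNA sequence of the RefSeq tables (0 of 298 for each), so the members are shown by coordinates, in hg38 and counted from 1. The choice of gene-free stretches left little room for such an overlap, so its absence is no finding about the members.

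The 23 intervals ran from 2.16 Mb on chromosome 2 to 21.7 Mb on chromosome 1, with a median of 4.28 Mb. Of the 41 genes that bounded them, 30 were pseudogenes, 6 were lncRNA genes and 4 were protein-coding genes. Among the last were EMB, which encodes the membrane glycoprotein embigin, and DCUN1D4, which encodes a protein of cullin neddylation. On 5 chromosomes (13, 14, 15, 21 and 22) the interval began at the chromosome's first base and ended at its first gene. Most members lay far from these flanking genes, at a median of 679 kb. The choice of the longest gene-free stretches favours such distances, and no expected distance was computed. A distance of over 500 kb was found for 162 members (54.4%), and one of at most 100 kb for 56 (18.8%).

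The intervals took 5.63% of the sequence from the first base to the last gene or peak of the chromosomes (171 of 3029.9 Mb) and held 31.4% of the peaks (95% interval 28.5 to 34.5). The density of peaks was 1.75 per Mb inside the intervals and 0.227 per Mb in the rest of these chromosomes, a ratio of 7.68. The sequence counted here included assembly gaps, in which no peak can lie. The interval was denser than the rest of its own chromosome on 17 of 23 chromosomes. The intervals on chromosomes 13 and 15 were less dense than the rest, and those on chromosomes 8, 14, 21 and 22 held 0 peaks. All of these but that of chromosome 8 began at the chromosome's first base. How much of each is assembly gap was not tested, so their low counts are no finding about density. The second longest gene-free stretches are far shorter, 23.7 Mb in all, and held 38 peaks on 7 chromosomes. Chromosome 21 held 13 of these peaks, and the stretches of all chromosomes but 2, 3, 14, 16, 20, 21 and 22 held 0. The pooled density of the second longest stretches, 1.61 per Mb, was close to that of the longest, without a test of the difference. It therefore does not describe gene-free stretches in general.

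**Figure D1:**
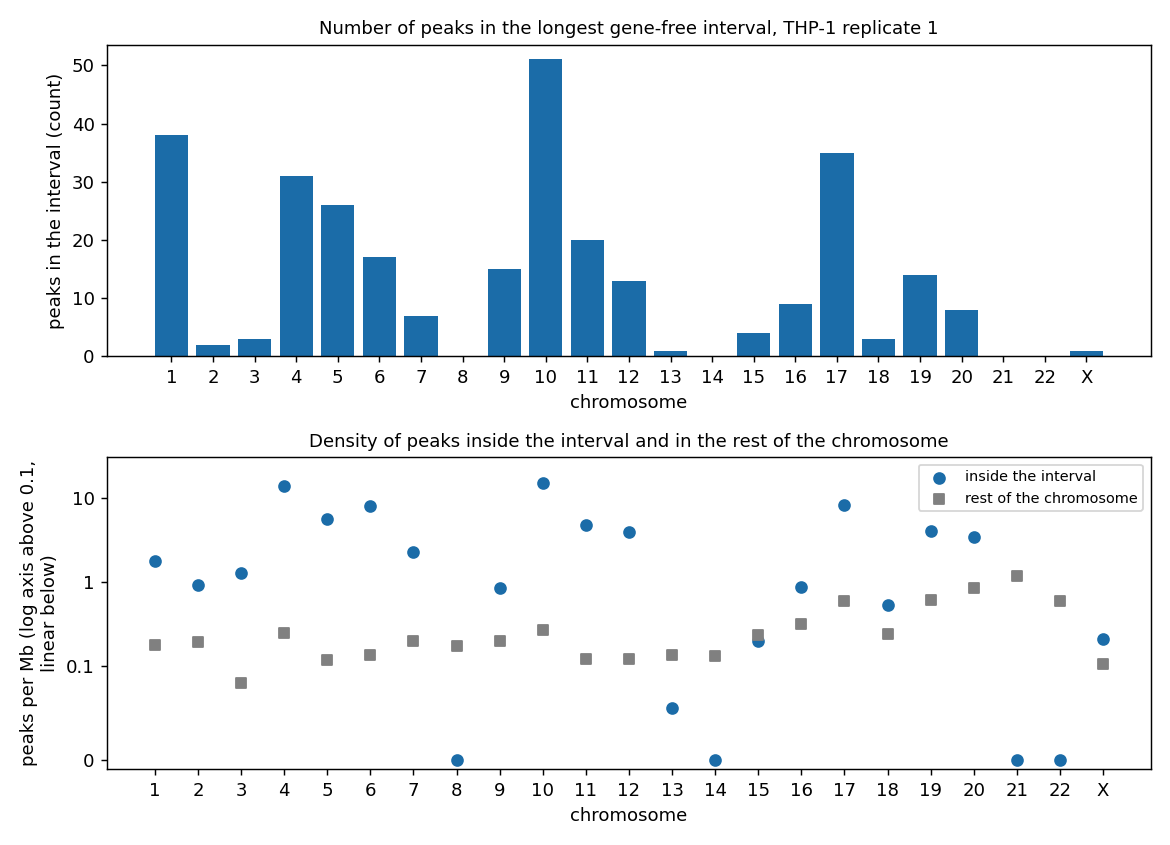
Upper panel: number of peaks (count, from 0) in each chromosome's interval. Lower panel: peaks per Mb inside the interval (circles) and in the rest of the chromosome (squares), on an axis that is logarithmic above 0.1 and linear below. Chromosome 10 had most peaks (51), and circles lie above squares on 17 of 23 chromosomes.

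Members were unevenly shared among chromosomes, and 5 chromosomes held 181 of 298 (60.7%). Chromosome 10 came first with 51 members between CHEK2P5 and KSR1P1 (38719383 to 42149318), 14.9 per Mb against 0.268 in the rest of that chromosome. Its strongest member by the authors' fold enrichment lay at 41133795 to 41134073 with a fold of 20.3. Fold was read here as a linear ratio of signal over a background that is not stated. Chromosome 1 had 38 members between EMBP1 and LOC101929814 (121571889 to 143299517), the strongest at 143184660 to 143185440 with a fold of 16.3. Chromosome 17 had 35 between WEE1P2 and LOC100422478 (22705637 to 26981691), with a top fold of 33.8 at 25920036 to 25920475. Chromosome 4 had 31 between SNX18P25 and DCUN1D4 (49589729 to 51833883), with a top fold of 31.1 at 50676782 to 50677387. Chromosome 5 had 26 in the stretch that ends before EMB, with a top fold of 15.5 at 49644562 to 49646293. Members were not ordered by interval length alone, in which assembly gaps were counted. Chromosome 1 had an interval 21.7 Mb long and fewer members than chromosome 10 with 3.43 Mb. The relation of number to length was not tested.

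Of the other chromosomes, 8 had 7 to 20 members. Chromosome 11 had 20 between LOC646813 and OR4C50P (50420632 to 54591479), the strongest at 54020970 to 54021427 with a fold of 24.7. Chromosome 6 had 17 between RBBP4P4 and PRIM2BP (58121086 to 60281437), the strongest at 59163006 to 59163390 with a fold of 23.8. Chromosome 9 had 15 between LOC102724904 and CNTNAP3P4 (43139881 to 60832661), with a top fold of 14.9 at 43776247 to 43776680. Chromosome 19 had 14 between LOC124904678 and LOC105372345 (24179012 to 27681071), and its strongest member, at 27183459 to 27183777, reached only 9.26. Chromosome 12 had 13 between AK6P1 and ZNF970P (34250266 to 37575342), with a top fold of 14.8 at 35614780 to 35615079. Chromosome 16 had 9 between LOC101929923 and ANKRD26P1 (36102206 to 46469336), with a top fold of 13.3 at 38276112 to 38276789. Chromosome 20 had 8 between LOC124904967 and FRG1CP (26251589 to 28580632), with a top fold of 27.0 at 28307946 to 28308491. Chromosome 7 had 7 between LOC102723842 and LOC101060796 (57868450 to 60991901), with a top fold of 12.2 at 59111367 to 59111673.

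Few members lay on the remaining chromosomes. Chromosome 15 had 4 before RNU6-978P (1 to 19883613), the strongest at 17080545 to 17083529, 2985 bp wide, with a fold of 9.13. Chromosome 3 had 3 between LOC101930420 and RNU6-488P (91513776 to 93843763), the strongest at 93470362 to 93470861 with a fold of 26.1. Chromosome 18 had 3 in the stretch that begins after LOC644669, with a top fold of 18.0 at 16265754 to 16266234. Chromosome 2 had 2 between IGKV1OR2-2 and BMS1P23 (92035128 to 94192530), the stronger at 92271659 to 92272027 with a fold of 7.93. Chromosome 13 had 1 before LOC124903223 (1 to 18176736), at 16467525 to 16467835 with a fold of 4.36. Chromosome X had 1 between KRT8P17 and SSBL2P (57986332 to 62779132), at 62472166 to 62472431 with a fold of 5.45.

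Of the 4 chromosomes without a member, 3 (14, 21 and 22) had an interval that ran from the chromosome's first base to its first gene, and on chromosome 8 it lay between CYP4F44P and HSPA8P13 (43540928 to 46549088). When only stretches between 2 genes counted, chromosome 21 had 13 peaks between IGHV1OR21-1 and ANKRD30BP2 (10649836 to 13038165), chromosome 14 had 2 between RNA5-8SP and RNU6-458P, and chromosome 22 had 1. Under that reading chromosomes 13 and 15 had 0, and the total was 309 in place of 298.

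Inside an interval, members took 2 arrangements that can be seen side by side on the map of summit positions. In the first, single peaks were scattered with no other peak of the list within 10 kb, as for 178 members (59.7%). In the second, peaks stood close together. At least 1 other peak lay within 10 kb of 120 members (40.3%), and 62 of these (20.8% of all members) fell in 7 dense clusters, chains of 5 or more summits each at most 10 kb from the next. The share depended on the distance chosen and on a few chromosomes: it was 65.1% at 50 kb and 28.5% at 5 kb, 24.6% without the dense clusters and 21.4% without chromosomes 1, 4, 5, 10 and 17. All 20 members on chromosome 11 and all 14 on chromosome 19 were single, spread over 2939.9 kb and 2289 kb. Chromosome 16 had no single member, and 6 of its 9 lay in 1 cluster.

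**Figure D2:**
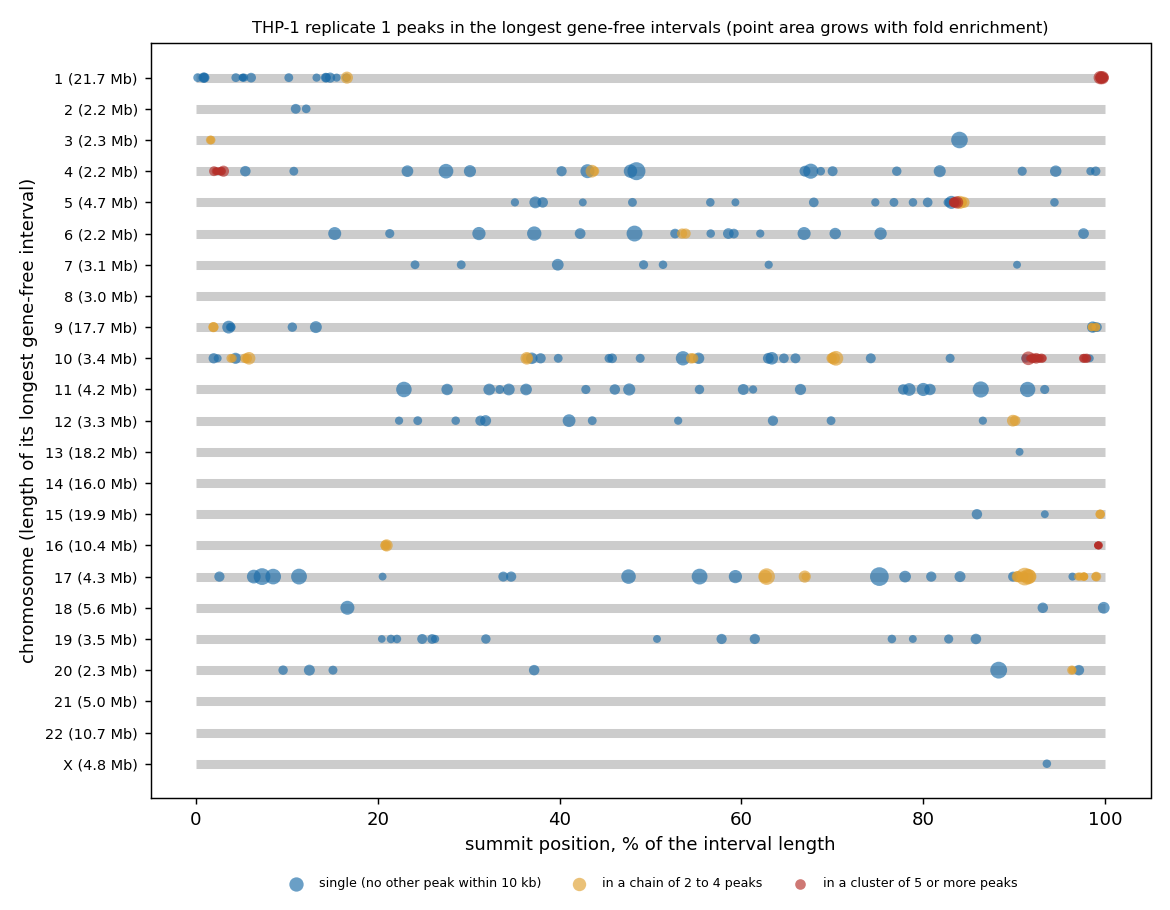
Each row is 1 chromosome's interval, drawn from 0 to 100% of its length (Mb in brackets), and each point is the summit of a member, with an area that grows with fold enrichment. Blue points are single, orange points are in chains of 2 to 4 peaks and red points are in clusters of 5 or more, which occur on chromosomes 1, 4, 5, 10 and 16.

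Some intervals had wide stretches without a peak between their members. On chromosome 1, 18 members lay at or before 125182563 and 20 at or after 143185182, with 18.0 Mb between them that held none. On chromosome 9, 7 and 8 members stood on either side of 15.1 Mb without a peak, from 45473495 to 60570412. On chromosome 16, 3 and 6 members stood on either side of 8.11 Mb. Whether these stretches are gaps of the assembly was not tested, as the gene table records none. Chromosome 18 had 4.30 Mb without a peak between its first and second members. On chromosome 15, whose interval is 19.9 Mb long, the widest such stretch between its 4 members was 1.48 Mb. That interval starts at base 1 and its first summit lay at 17081434, so the long part before it held no peak. On the other 8 chromosomes with 10 or more members, the widest ran from 0.416 Mb on chromosome 4 to 1.05 Mb on chromosome 10.

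Among the 7 dense clusters, 6 lay within 250 kb of one end of their interval. The farthest of these 6 was the chromosome 10 cluster of 15, 234 kb from KSR1P1. The share of all members within 250 kb of an end was not counted. On chromosome 10, 15 members stood between 41859156 and 41915549, with summits 3845 bp apart at the median and with peaks covering 38.2% of the cluster. A second chromosome 10 cluster of 5 lay at 42067152 to 42080762, 68.6 kb from KSR1P1. On chromosome 1, a cluster of 15 lay at 143212844 to 143266805, 32.7 kb from LOC101929814, and a cluster of 5 just before it at 143184660 to 143202907. On chromosome 4, 10 members stood between 49632595 and 49657900, 42.9 kb from SNX18P25, with peaks covering 46.8% of that cluster. On chromosome 16, 6 members stood between 46386205 and 46401567, 67.8 kb from ANKRD26P1. The cluster on chromosome 5, 6 members at 49612265 to 49631630, was the exception, 765 kb from EMB. The median spacing of summits in the 7 clusters ranged from 2058 bp on chromosome 16 to 4093 bp on chromosome 5.

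**Figure D3:**
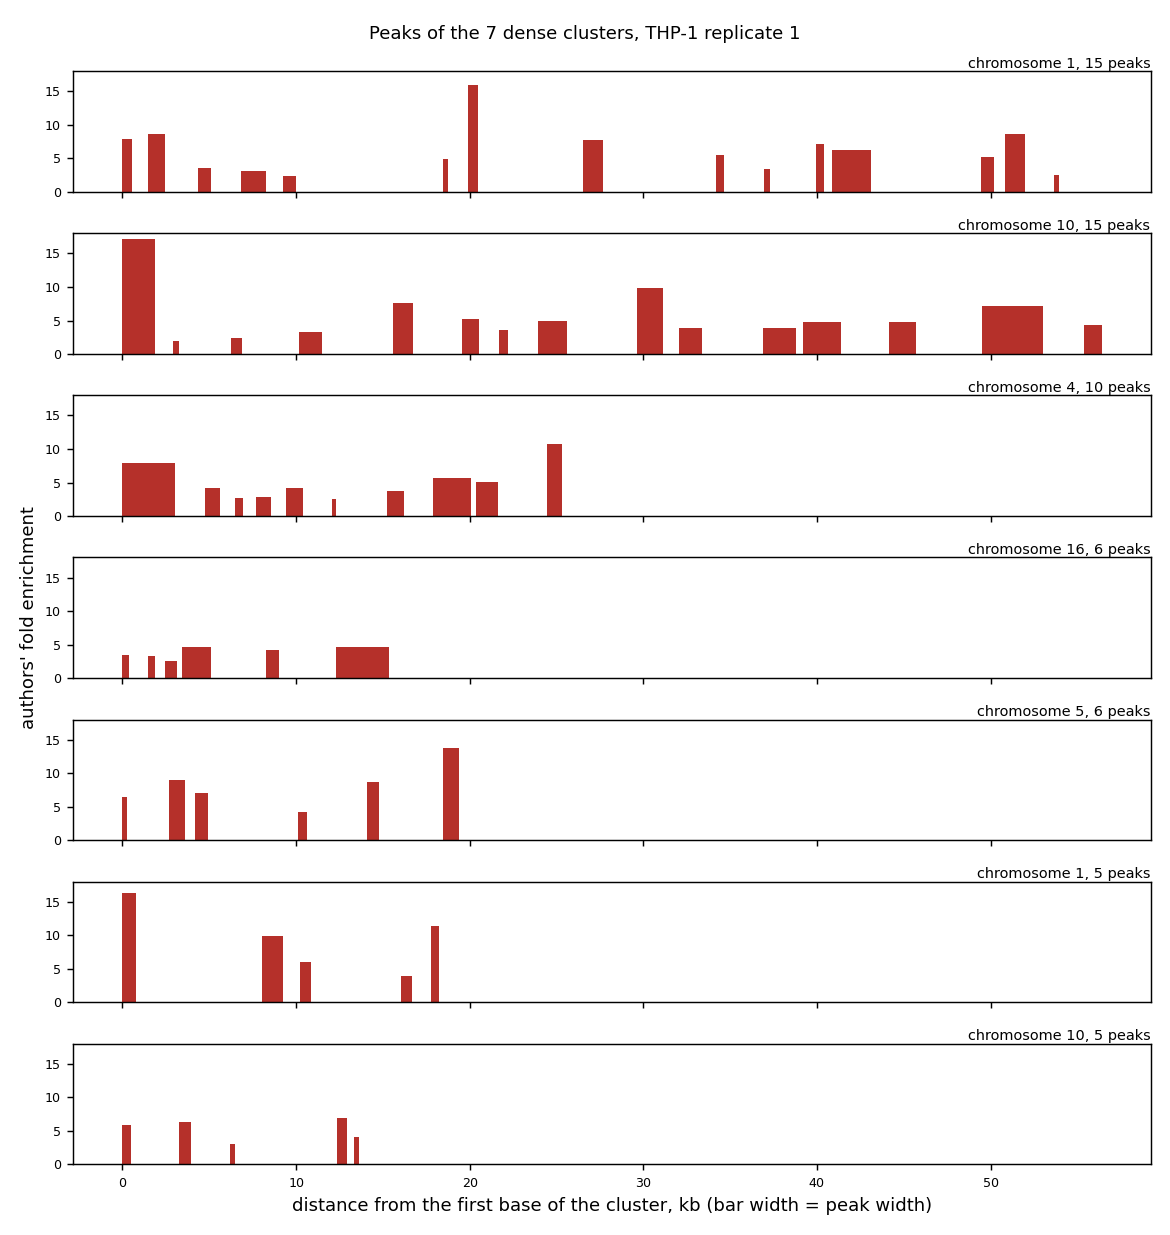
Each panel is a dense cluster, with distance from its first base in kb on the horizontal axis and the authors' fold enrichment on the vertical axis (from 0). Each bar is a peak, drawn as wide as the peak. Folds differ within a cluster, from 1.98 to 17.1 in the 15 peaks of chromosome 10.

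Members of dense clusters were wide and highly significant, and single members were narrow. The median width was 774 bp in the clusters (quartiles 493 and 1246) and 368 bp among single members (quartiles 311 and 473). Widths over 1000 bp were found in 22 of 62 clustered members (35.5%) and in 5 of 178 single members (2.81%). The median -log10 q was 54.4 in the clusters and 9.76 among single members. Both differences had the same direction on each of the 4 chromosomes that held both kinds. On chromosome 10, for example, the median width was 1098 bp against 365 bp and the median -log10 q was 54.3 against 9.76.

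Fold enrichment ran the other way over all members, but not on every chromosome. Its median was 4.93 in the clusters (quartiles 3.65 and 7.54, range 1.98 to 17.1) and 8.17 among single members (quartiles 5.99 and 11.6, range 4.06 to 33.8). The clusters held 20 of the 21 members with a fold under 4, and single members held 13 of the 17 with a fold of at least 20. The clustered median was lower than the single median on chromosome 4 (4.14 against 10.3) and chromosome 10 (4.80 against 8.17). It was slightly higher on chromosome 1 (6.19 against 5.99) and higher on chromosome 5 (7.89 against 5.99). The direction of the fold difference thus changed from one chromosome to another.

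Peaks outside the intervals that stood in clusters had similar values. Among the 650 other THP-1 peaks, 77 were in chains of 5 or more, with a median width of 904 bp and a median fold of 5.04, against 420 bp and 6.81 for the 465 single ones. Clusters of wide peaks, with a lower pooled median fold than single peaks, were therefore not confined to the intervals. The folds of these other peaks were not compared chromosome by chromosome.

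**Figure D4:**
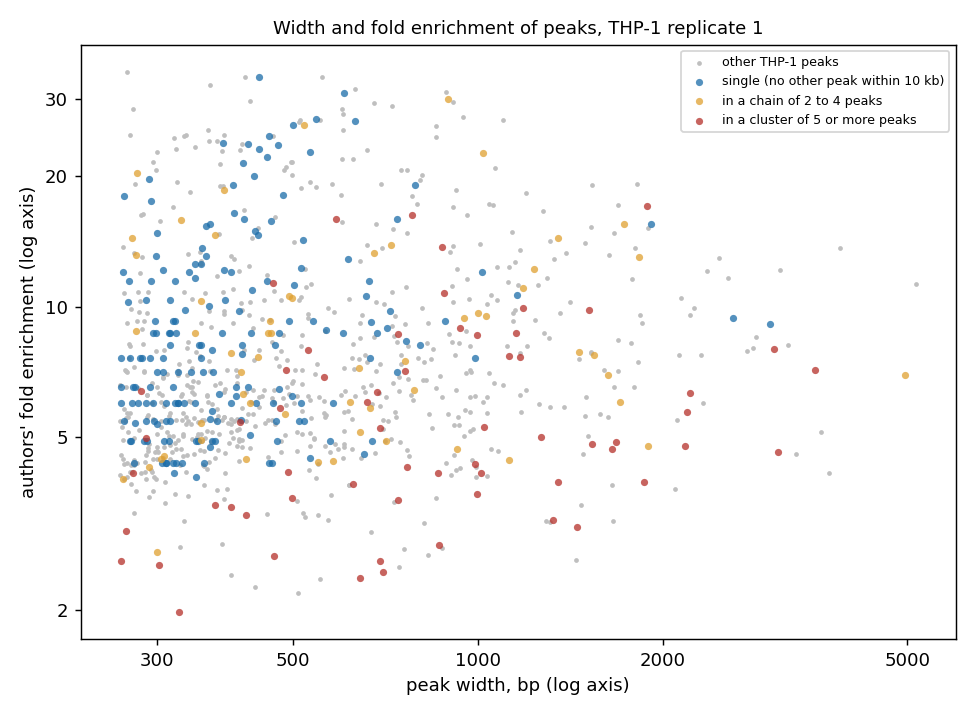
Peak width in bp and the authors' fold enrichment, both on log axes, with 1 point per THP-1 peak. Grey points are peaks outside the intervals, and members are blue (single), orange (chains of 2 to 4) or red (clusters of 5 or more). Single members have a median width of 368 bp, and 20 of the 21 members with a fold under 4 are red.

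As a whole, members resembled the other peaks of the list in width and fold. Their median width was 430.5 bp (quartiles 322 and 686, range 263 to 4961), against 545 bp for 316 other intergenic peaks and 430 bp for 334 peaks in or within 1000 bp of a gene. Their median fold was 7.35 (quartiles 5.09 and 10.6), against 6.25 and 6.88. The quartiles of the 3 groups overlapped widely. Their median -log10 q was 14.7, against 14.2 and 9.90. Members made up 31.4% of the list and 3 of its 10, 13 of its 50 and 26 of its 100 highest folds, as well as 28 of its 100 highest -log10 q. Another peak lay within 10 kb of 40.3% of members, 46.5% of other intergenic peaks and 11.4% of peaks in or near genes. The median distance to the next peak was 14.9 kb for members and 202 kb for the other 650 peaks. The latter pool peaks in or near genes with other intergenic peaks, for which no separate median was computed. Among single peaks alone, the median fold was 8.17 for 178 members and 6.54 for 169 other intergenic peaks, with overlapping quartiles. Widths over 1000 bp made up 2.81% of the former and 11.8% of the latter.

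Levels differed among chromosomes. Over the 13 chromosomes with at least 5 members, the median fold ranged from 4.54 on chromosome 16 to 11.4 on chromosome 11, and the median width from 321 bp on chromosome 19 to 694 bp on chromosome 16. Chromosomes 17 (median fold 10.4) and 6 (9.79) followed chromosome 11. On chromosome 19, by contrast, the 14 folds lay between 4.06 and 9.26 with a median of 5.99. Chromosomes 5, 7 and 12 had medians close to it, at 6.19, 5.99 and 5.99.

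The 10 members with the highest fold included 5 on chromosome 17. After the peak of fold 33.8 came those at 26603514 to 26604407 (fold 30.0), 23016110 to 23016741 (26.8), 25389764 to 25390284 (26.2) and 23190204 to 23190625 (23.6). The others were the strongest members of chromosomes 4, 20, 3, 11 and 6. Of the 10, 8 were single and 0 were in a dense cluster, and their widths ran from 385 to 894 bp.

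The peak on chromosome 3 at 93470362 to 93470861 stood apart in significance. Its -log10 q was 2959, the highest of all members, over a width of 500 bp. The next members by -log10 q were on chromosome 5 at 49601119 to 49603032 (2011, fold 15.5) and on chromosome 10 at 41859156 to 41861041 (830, fold 17.1), the latter the first peak of that chromosome's largest cluster. At the top, fold and significance did not rank members alike. Only 3 of the 10 highest in fold (2 on chromosome 17 and the one on chromosome 3) were among the 10 highest in -log10 q. The rankings of all members were not compared.

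The folds of most single members fell on an evenly spaced ladder. In the whole list, the 11 fold values found in 5 or more peaks each were whole multiples of 0.545, and 117 members had a fold within 0.001 of such a multiple. The commonest were 5.99 (11 steps, 17 members), 4.90 (9 steps, 14 members), 8.72 (16 steps, 12 members) and 4.36 (8 steps, 10 members), the last being the lowest step in use. Of single members 110 of 178 (61.8%) were on the ladder, of members in chains of 2 to 4 it was 7 of 58 (12.1%), and of those in dense clusters 0 of 62. Of the 465 single peaks elsewhere 18 (3.87%) were on the ladder, and of the 169 intergenic ones among them 9 (5.33%). The ladder was not confined to the longest intervals. In chromosome 3's second longest stretch, which held 7 peaks, those starting at 90869305, 90881835 and 91152102 were on it. Chromosome 19 had 13 of its 14 members on the ladder, chromosome 11 had 14 of 20 and chromosome 16 had 0 of 9. As read here, a fold is signal divided by background. The authors' signal and background per peak were not used, so what 1 step stands for was not tested. The step was found after the values were seen. It was set by repeated folds of this same list, and 117 members and 22 other peaks lay on it. The contrast with peaks elsewhere is therefore not independent of how the step was chosen.

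**Figure D5:**
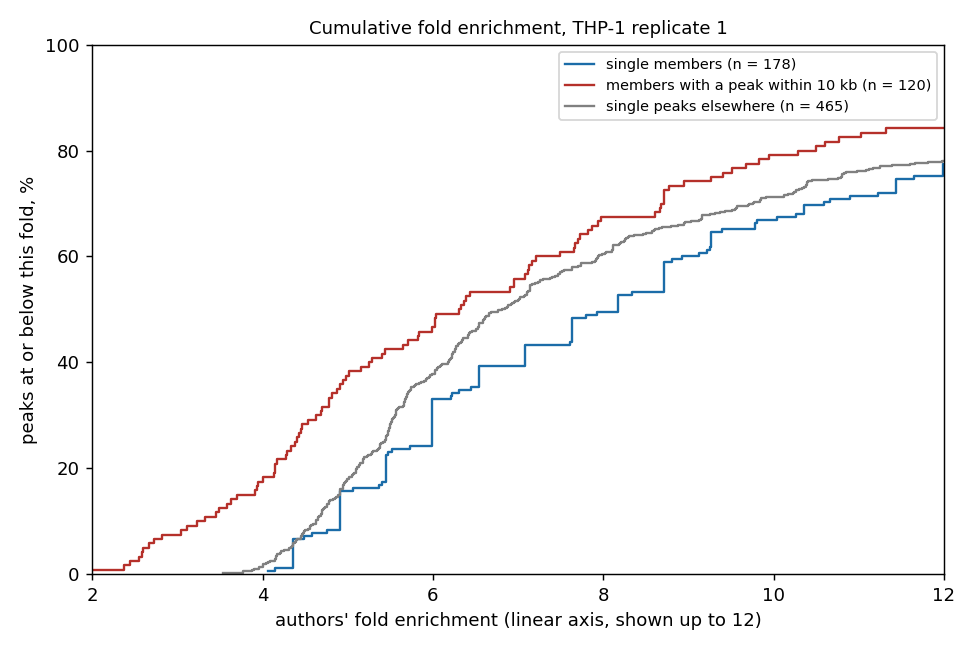
Share of peaks (%) at or below a given fold, on linear axes, up to a fold of 12. The line of the 178 single members (blue) climbs in evenly spaced jumps, among them those at 4.90 and 5.99, whereas the line of the 465 single peaks elsewhere (grey) climbs smoothly.

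The edges of the intervals did not cut through a peak. All 298 members lay whole inside. Only 1 of them lay within 10 kb of a flanking gene, and it is not described here. The next nearest was on chromosome 4 at 51810612 to 51810936, 23.01 kb from DCUN1D4, with a fold of 7.08 and a width of 325 bp. The nearest peak outside was on chromosome 2 at 94193225 to 94193559, 0.769 kb beyond the end of the interval, with a fold of 5.56 and a width of 335 bp.

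U-937 replicate 1 had 0 of its 2272 peaks in the same intervals, which allows a share of up to 0.132% of listed peaks. It follows that none of the 298 members was overlapped by a U-937 peak. Of the other 650 THP-1 peaks, 25 (3.85%) were overlapped by one, so such overlap was rare in the whole list. The lists also differed in the sequences they covered, as 245 THP-1 peaks and 0 U-937 peaks lay on contigs that belong to no chromosome sequence. A difference between the cells and a difference in how the lists were made cannot be told apart here.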

How the data were processed

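FOXO3A CUT&Tag was deposited as 1 peak list per library, in narrowPeak layout without a header. Bowtie2, Picard and build hg38 are named per the submitters' processing notes. For the peak caller, its background and its filters, the sources used here give nothing. The authors deposited for each peak a fold enrichment (a linear ratio), -log10 of a p-value and q-value, and an integer score. Fold was used within its own list only.

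The gene table (RefSeq, GRCh38.p14) held 59792 genes. Of these, 831 were left out because they carried no chromosome 1 to 22, X or Y coordinates, were mitochondrial, or stood after the first ascending run of their chromosome. Gene-free stretches counted from base 1 and ended at the last gene. Clusters were chains of summits at most 10 kb apart. The code that finds intervals, members and clusters was tested on simulated data. Python 3.11.15, pandas 2.3.3 and scipy 1.17.1 were used.

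The members and alternatives were chosen with earlier results of these data known. Named were each interval with its flanking genes and strongest member, the 10 members of highest fold and every cluster of at least 5. Some items that this rule names are left out of the text. Any other member was picked for naming with its values in view. Alternatives covered significance, interval definition, gene kinds, membership, cluster distance, chromosomes and libraries.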

Additional observations from a re-analysis of the deposited data

Results flagged for a closer look

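Peaks of the THP-1 list that no comparison between intervals used were found in 2 places, each above the 3 counts that a count of 0 allows. The longest gene-free interval of chromosome Y (26634656 to 56855242) held 8 of that chromosome's 89 peaks. Contigs outside the chromosomes held 245 of the 1282 peaks. No group was large enough for a check of single libraries that stand apart.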

How the results depend on the processing

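The number of members was 249 at -log10 q of at least 5, 309 with stretches between 2 genes only, 325 when only protein-coding and lncRNA genes ended an interval, and 298 with whole peaks inside or with all genes of the table. Leaving out 1 THP-1 library at a time gave 0 to 298 members, since all came from replicate 1, and without that library no share, width or fold could be computed. Without U-937 replicate 1 there was no U-937 list to compare. Other values moved as follows. At -log10 q of at least 5 the median fold was 8.17. With protein-coding and lncRNA genes only, 1 U-937 peak lay in the intervals. Members with another within the cluster distance made up 28.5% at 5 kb and 65.1% at 50 kb. As alternatives chosen after seeing the data, leaving out clusters of at least 5 gave 24.6% clustered and a median width of 397 bp, and leaving out chromosomes 1, 4, 5, 10 and 17 gave 117 members (20.3% of peaks), 21.4% clustered and a median width of 397 bp. Each of these alternatives removes the members in question by construction. No paired analysis was possible because only replicate 1 of each line held peaks. Read depth is unknown, so the number of peaks that deeper libraries would hold cannot be given.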
